A study of Drosophila melanogaster with 12 samples.

Results

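Cytochrome P450 genes were followed in the heads of Drosophila melanogaster that carried the Shu mutation or were wild type, each with or without lithium. Members were the genes of the array whose symbol starts with Cyp and a digit and that a probe set (a group of short probes read as 1 value) names alone. That rule gave 83 genes on 85 probe sets, of 11981 genes named in this way on the whole array, and the probe set of highest mean signal stood for a gene with several. By their names 2 of the 83, Cyp1 and Cyp40, are cyclophilins, which fold proteins and are not P450s, so 81 P450 genes remained. Neither cyclophilin was called in any comparison, nor were 2 probe sets that name a P450 together with another gene and so were no members. The arm was 2R for 33 of the 81 and 2L for 13, 3R for 15, 3L for 6 and X for 14.

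The samples were 12 arrays of total RNA from whole heads, with 3 arrays in each of 4 groups. Shu_50 was the mutant treated at 50 mM and Shu_0 the untreated mutant, while CS_50 was the wild type on 50 mM lithium and CS_0 the untreated wild type. The labels name the agent as lithium for CS_50, and the series title does so for the study, but the labels of Shu_50 give the concentration alone. Shu stands in the fly gene annotation as a name of para, the voltage-gated sodium channel, whereas the labels call these flies mutant and say nothing of the allele, sex, age, length of treatment or number of flies. No label says that the arrays of a group came from separate cultures, so the p-values below measure the spread between these arrays, which may in part be technical. In whole heads, fewer cells of a type and less RNA per cell cannot be told apart. Whether mutant and wild type share a genetic background is not given here. The mutation and other genetic differences between these flies therefore cannot be told apart in the genotype comparisons.

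P450s are haem enzymes that take electrons from a partner protein and use oxygen to oxidise small molecules. In insects they make and inactivate the moulting hormone ecdysone, help to build the waxy hydrocarbons of the cuticle and break down plant toxins and insecticides. The family is divided into the CYP2, CYP3, CYP4 and mitochondrial clans. Hormone enzymes lie mostly in the CYP2 and mitochondrial clans, and the CYP3 clan holds many of the genes that toxins and drugs induce.

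Probe sets were tested when their mean reached a signal of 11.5, the 40th percentile of the array, and 64 of the 81 P450 genes did so. The others were 17 dim genes, of which Cyp304a1 came closest with a mean signal of 9.24. Just inside the limit was Cyp313b1 at 13.7. The CYP3 clan kept 32 of 37 genes, the CYP4 clan 24 of 32, the mitochondrial clan 6 of 8 and the CYP2 clan 2 of 4. Signals of different probe sets depend on their probes, so levels are compared below only between arrays. Within groups the median coefficient of variation of the 64 genes was 9.32% in Shu_50, 9.26% in Shu_0, 9.38% in CS_50 and 9.63% in CS_0. Array medians ran from 23.9 to 25.8. CS_0 replicate 3 and Shu_0 replicate 1 were the arrays at the ends of the first principal component (18.1% of the variance). P450 calls that change with both left out are given without them too. Markers of photoreceptors and neurons, cells that heads contain, had summed signals of 22152 to 29189 over 3 photoreceptor genes and 959 to 1138 over 3 neuronal genes.

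Differences are given as log2 of the signal plus a small offset of 6.26, with limma's moderated standard error (SE), so that the change of a dim gene is understated. A gene was called when its adjusted p was under 0.05 (Benjamini-Hochberg over all 11261 tested probe sets, two-sided). Of the 64 P450 genes 8 were called in at least 1 comparison and 56 in none. Cyp309a1 was called higher on lithium in both genotypes. Cyp6g1 was called higher and Cyp4ac2 lower in the mutant, and Cyp4ac3 higher and Cyp18a1 lower in the wild type. Each of these had the same sign, uncalled, in the other genotype. The log2 difference was 0.12 for Cyp6g1 and -0.29 for Cyp4ac2 in the wild type. It was 0.38 for Cyp4ac3 and -0.25 for Cyp18a1 in the mutant. No P450 gene was called for a difference between the lithium effects. In untreated flies the mutant had less Cyp6a2, Cyp6a9 and Cyp18a1 and more Cyp28c1 than the wild type. No P450 gene was called between the genotypes on lithium.

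**Figure D1:**
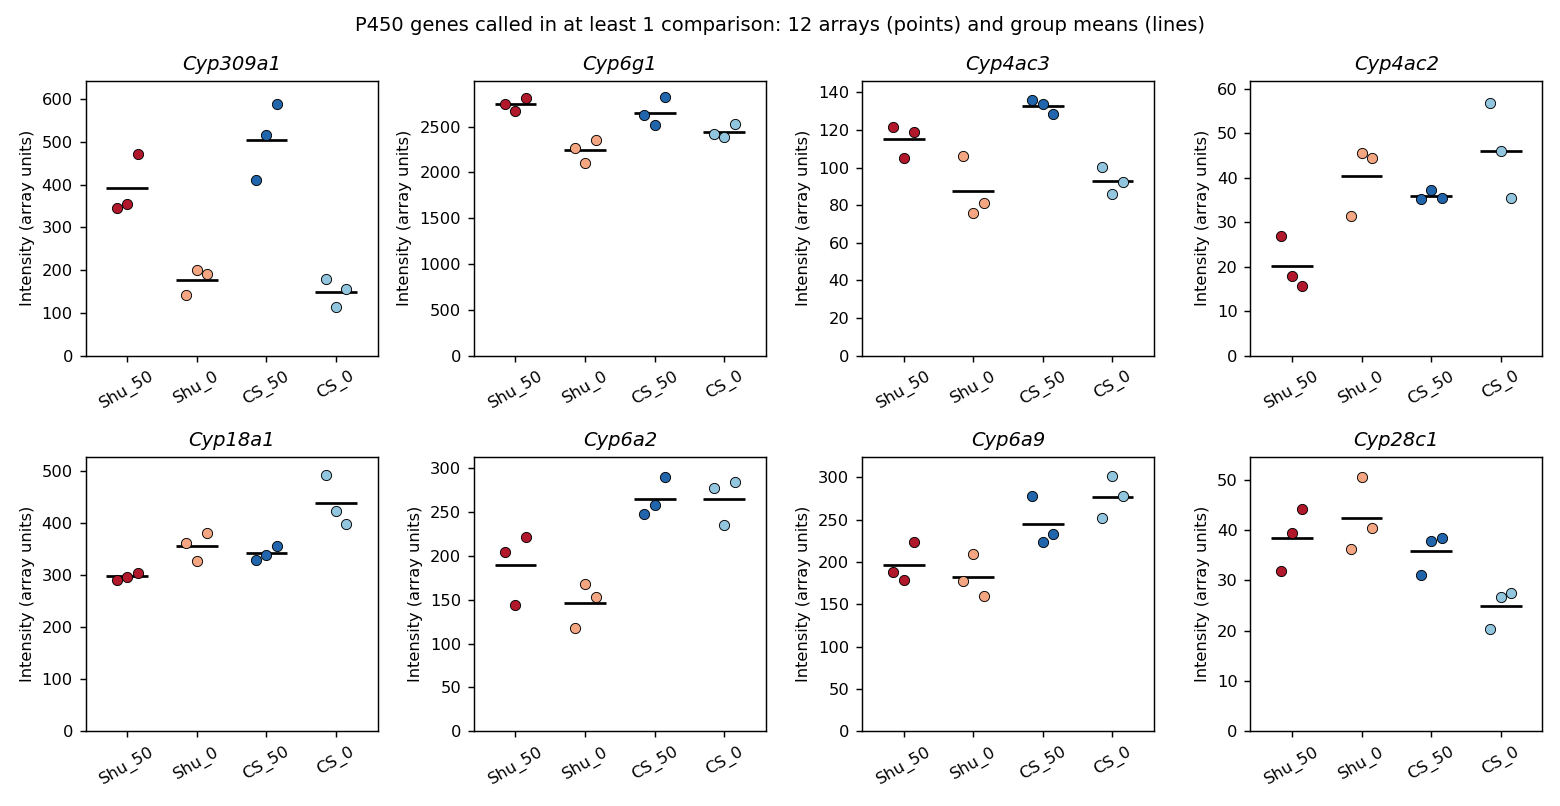
Signal intensity in array units (vertical axes, each starting at 0) of the 8 P450 genes called in at least 1 comparison, with 1 point per array and a line at the mean of each group of 3, in the order Shu_50, Shu_0, CS_50 and CS_0. The lithium-treated arrays of Cyp309a1 lie above all untreated ones, and the mutant arrays of Cyp6a2 lie below all wild-type ones.

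Cyp309a1, a CYP3 clan gene on arm 2L, had the largest difference of any P450 gene tested in either lithium comparison. Its signals were 346, 356 and 473 in Shu_50, against 142, 199.7 and 191 in Shu_0. In the wild type they were 410.4, 517 and 588 in CS_50, against 178, 114 and 155 in CS_0. Every lithium-treated array of either genotype lay above every untreated array. The means were 392 ± 70.5 in Shu_50 and 178 ± 31.2 in Shu_0, and 505 ± 89.6 in CS_50 and 149 ± 32.6 in CS_0 (SD, n = 3 arrays each). On the log2 scale the rise was 1.11 ± 0.17 in the mutant (2.17-fold, limma adjusted p = 0.00106) and 1.72 ± 0.17 in the wild type (3.31-fold, adjusted p = 2.42e-05).

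The rise of Cyp309a1 was smaller in the mutant by 0.61 on the log2 scale, with a 95% interval for the difference of -1.11 to -0.11. That difference had an unadjusted p of 0.0191 and an adjusted p of 0.705 over all probe sets, so it was not called. Between the genotypes Cyp309a1 was 0.36 lower in the mutant on lithium (log2 -0.36 ± 0.17, adjusted p = 0.416) and 0.25 higher untreated (0.25 ± 0.17, adjusted p = 0.44), and the arrays overlapped in both. Both lithium calls held in all 22 alternative settings, with log2 differences of 0.97 to 1.204 in the mutant and 1.55 to 1.87 in the wild type.

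Cyp309a2, the gene next to Cyp309a1 with none between them, was among the 17 dim genes. It had signals of 14.0, 7.79 and 18.1 in Shu_50, against 4.61, 10.3 and 3.34 in Shu_0. The wild-type signals were 13.7, 3.97 and 15.7 in CS_50, against 6.21, 3.11 and 4.03 in CS_0. The treated arrays were mostly the higher ones, and the groups overlapped in both genotypes. In a fit without the limit on dim probe sets its log2 difference was 0.67 ± 0.34 in the mutant and 0.63 ± 0.34 in the wild type, with an adjusted p of 0.575 in each.

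In the mutant 3 of 64 P450 genes were called on lithium (4.69%), against a background of 1.86% of all tested probe sets, and they were 2 higher (background 1.21%) and 1 lower (0.648%). The unadjusted p was under 0.05 for 18 of 64 genes (28.1%, background 11.9%), 10 higher (background 5.85%) and 8 lower (background 6.05%). The arrays of the groups did not overlap for 19 of 64 genes (background 15.8%). Among wild-type flies 3 of 64 were called (4.69%, background 1.62%), 2 higher (background 0.995%) and 1 lower (background 0.622%). There 10 of 64 had an unadjusted p under 0.05 (15.6%, background 13.1%), 6 higher (background 6.7%) and 4 lower (background 6.43%). The wild-type arrays did not overlap for 13 of 64 genes (background 19.1%). The median log2 difference over the family was -0.06 in the mutant and -0.02 in the wild type, beside -0.01 and 0.00 over all tested probe sets. The median size of the difference, whatever its sign, was 0.16 in the mutant and 0.14 in the wild type, beside 0.10 and 0.11 over all tested probe sets.

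**Figure D2:**
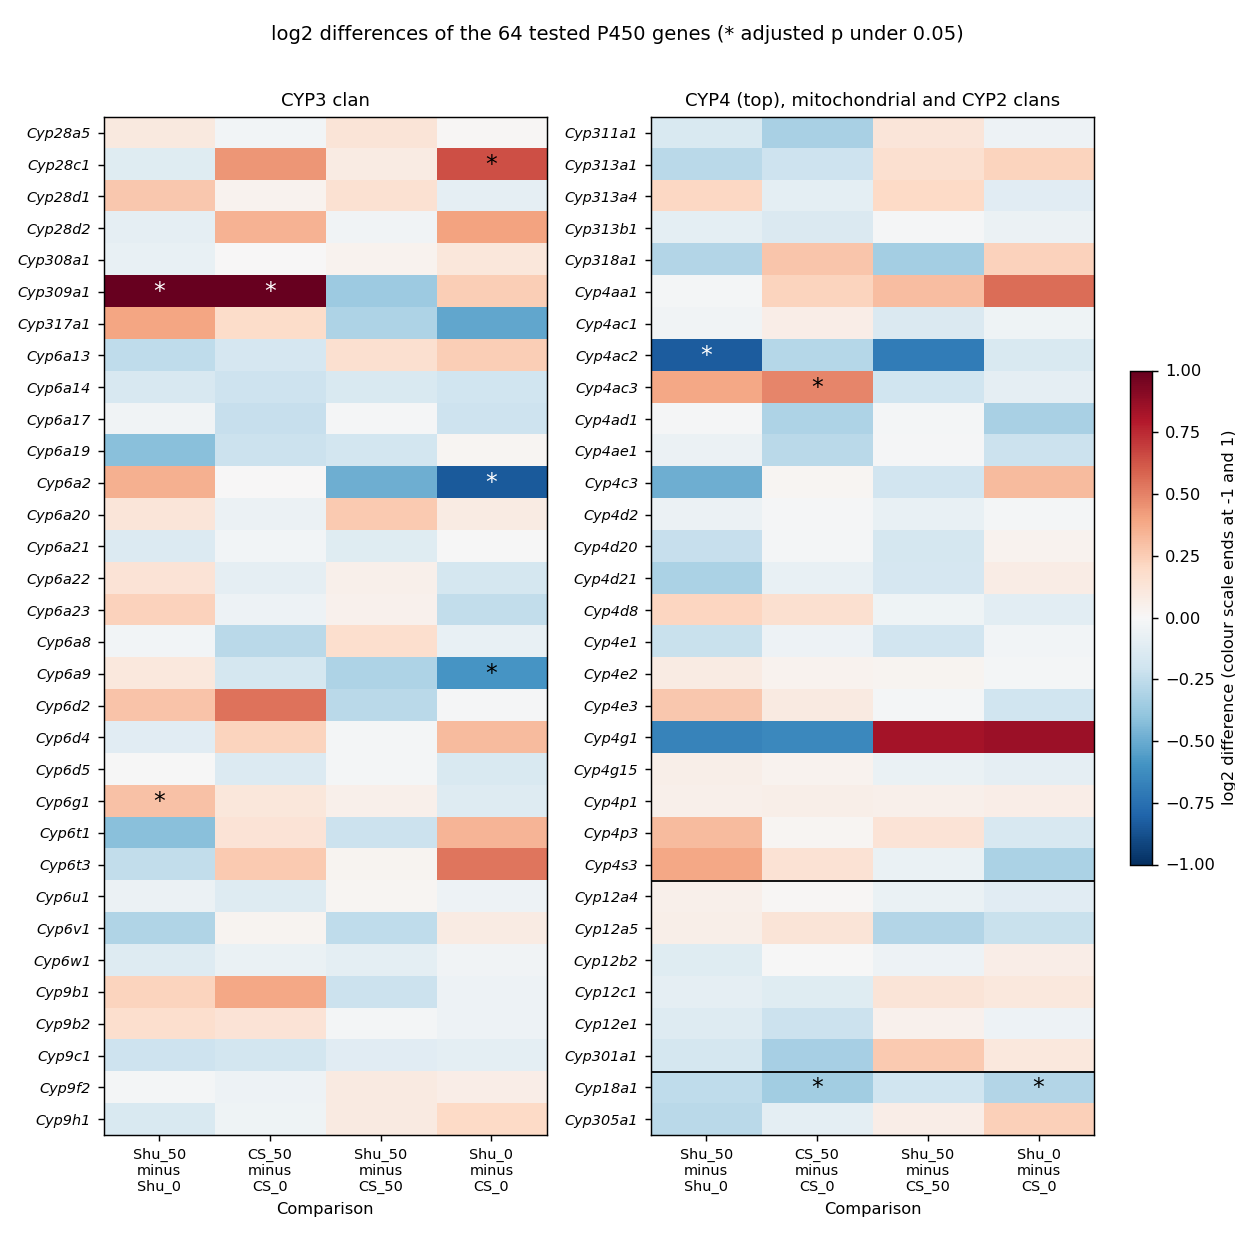
log2 differences of the 64 tested P450 genes (1 line each, grouped by clan) in 4 comparisons (columns), coloured from blue (lower in the first-named group) to red (higher), with the colour scale ending at -1 and 1 and a star where the adjusted p was under 0.05. Cyp309a1 is the only gene with a star in both lithium columns, and the column of the genotypes on lithium has none.

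Cyp6g1, whose overexpression gives flies resistance to DDT and other insecticides, rose on lithium in the mutant. Its signals were 2748, 2673 and 2818 in Shu_50, against 2263, 2102 and 2358 in Shu_0. Wild-type arrays read 2625, 2514 and 2820.0 in CS_50, against 2416, 2388 and 2535 in CS_0. The groups were apart in the mutant and overlapped in the wild type. The log2 difference was 0.29 ± 0.06 in the mutant (1.23-fold, limma adjusted p = 0.0124) and 0.12 ± 0.06 in the wild type (adjusted p = 0.436). The difference between these effects was 0.18 with a 95% interval of 0.00 to 0.36 and an adjusted p of 0.742. The call in the mutant was lost without Shu_0 replicate 2 (adjusted p = 0.0545), Shu_50 replicate 1 (0.0549) or Shu_50 replicate 3 (0.0585), and with no intensity trend in the fit (0.103).

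Cyp4ac1, Cyp4ac2 and Cyp4ac3 lie side by side on arm 2L and belong to the CYP4 clan. On lithium the log2 difference of Cyp4ac2 was negative and that of Cyp4ac3 positive in both genotypes, and that of Cyp4ac1 was -0.04 ± 0.09 in the mutant and 0.07 ± 0.09 in the wild type. Cyp4ac2 had signals of 27.0, 17.9 and 15.7 in Shu_50, against 31.4, 45.6 and 44.4 in Shu_0. Its wild-type signals were 35.2, 37.2 and 35.3 in CS_50, against 56.7, 45.9 and 35.3 in CS_0. The 3 arrays of Shu_50 were the lowest of the 12. Cyp4ac2 fell by 0.83 on the log2 scale in the mutant (SE 0.20, limma adjusted p = 0.0456), beside -0.29 ± 0.20 in the wild type (adjusted p = 0.601). The call was lost on leaving out any of Shu_50 replicates 2 and 3, Shu_0 replicates 2 and 3, CS_50 replicates 1, 2 and 3 or CS_0 replicate 2, with adjusted p of 0.0634 to 0.186. It was also lost with quantile normalization (0.0551), the replicate block (0.0566), array weights (0.074), no intensity trend (0.0918), no limit on dim probe sets (0.118) and the arrays of the contrast alone (0.125).

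Cyp4ac3 had signals of 122, 105 and 119 in Shu_50, against 106, 75.7 and 80.9 in Shu_0. In the wild type the signals were 136, 134 and 128 in CS_50, against 100.3, 85.9 and 92.1 in CS_0. The groups were apart in the wild type, whereas in the mutant Shu_0 replicate 1 reached into the treated range. Cyp4ac3 rose by 0.49 ± 0.12 in the wild type (1.41-fold, limma adjusted p = 0.0418), and its difference in the mutant was 0.38 ± 0.12 (adjusted p = 0.13). The wild-type call was lost on leaving out any array of CS_50 or CS_0, Shu_50 replicate 1 or Shu_0 replicate 3 (adjusted p = 0.0512 to 0.149). It was also lost with quantile normalization (0.0669), no limit on dim probe sets (0.0735) and no intensity trend (0.124). Leaving out CS_0 replicate 3 and Shu_0 replicate 1 together lost it as well (0.0565). The mutant difference was called without Shu_0 replicate 1 (adjusted p = 0.0259), and without that array and CS_0 replicate 3 together (0.0303). For Cyp4ac1 the means were 395 ± 28.03 in Shu_50 and 406 ± 41.6 in Shu_0, and 436 ± 24.1 in CS_50 and 418 ± 46.2 in CS_0 (SD, n = 3 each).

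Cyp18a1, the CYP2 clan enzyme that inactivates 20-hydroxyecdysone, was lowest in Shu_50 and highest in CS_0. Its signals were 291, 297 and 304.8 in Shu_50 and 363, 327 and 381 in Shu_0. Those of the wild type were 329.8, 339 and 357 in CS_50 and 493, 424 and 398 in CS_0. The arrays were apart, with the first-named group lower, in Shu_50 against Shu_0, CS_50 against CS_0, Shu_50 against CS_50 and Shu_0 against CS_0. It fell by 0.35 on lithium in the wild type (SE 0.08, limma adjusted p = 0.0356) and was lower by 0.29 in the untreated mutant than in the untreated wild type (log2 -0.29 ± 0.08, adjusted p = 0.047), and these calls share the CS_0 arrays. The difference was -0.25 ± 0.08 on lithium in the mutant (adjusted p = 0.155) and -0.20 ± 0.08 between the genotypes on lithium (adjusted p = 0.336).

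The lithium call of Cyp18a1 in the wild type was lost without CS_50 replicate 1, 2 or 3, CS_0 replicate 1 or 2 or Shu_50 replicate 1 (adjusted p = 0.0529 to 0.147), and with no limit on dim probe sets (0.0551), the arrays of the contrast alone (0.0587) or no intensity trend (0.154). Its genotype call was lost on leaving out any single array other than CS_0 replicate 3 (adjusted p = 0.0524 to 0.161). It was also lost with the replicate block (0.0531), quantile normalization (0.0604), no limit on dim probe sets (0.0679), the arrays of the contrast alone (0.107) and no intensity trend (0.13). Leaving out CS_0 replicate 3 and Shu_0 replicate 1 together lost the genotype call as well (0.121). A second Cyp18a1 probe set had the same signs, with -0.19 ± 0.11 and -0.31 ± 0.11 for lithium in the mutant and the wild type and -0.09 ± 0.11 and -0.21 ± 0.11 for the mutant on lithium and untreated, and was not called in any of them. In the first probe set the lithium effects of the genotypes differed by 0.09, with a 95% interval of -0.14 to 0.33.

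Among the P450 genes not called on lithium in the mutant, those of lowest p were Cyp6t1, Cyp28d1, Cyp4ac3, Cyp305a1, Cyp18a1 and Cyp6a13. Cyp28d1, linked to nicotine resistance, had signals of 3373, 3534 and 3659.6 in Shu_50, against 2960.3, 2632 and 3179.7 in Shu_0. These arrays did not overlap, and the log2 difference was 0.27 ± 0.08 (limma adjusted p = 0.107, and 0.0385 with quantile normalization or 0.0344 with the replicate block). Cyp6t1 averaged 91.6 ± 14.0 in Shu_50 and 124 ± 2.19 in Shu_0, a log2 difference of -0.42 ± 0.12 (adjusted p = 0.0873, and 0.0417 without Shu_50 replicate 3). Cyp305a1, a CYP2 clan gene, averaged 305.4 ± 14.3 in Shu_50 and 369 ± 17.5 in Shu_0 (-0.27 ± 0.08, adjusted p = 0.141), and Cyp6a13 averaged 195 ± 11.9 in Shu_50 and 235 ± 24.4 in Shu_0 (-0.25 ± 0.08, adjusted p = 0.174, and 0.0446 without Shu_0 replicate 2).

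In the wild type the next genes by p were Cyp9b1, Cyp6a17, Cyp6d2, Cyp12e1, Cyp28c1 and Cyp313a1. Cyp9b1 had signals of 201, 274 and 279 in CS_50, against 197, 185 and 184 in CS_0. The arrays were apart, but CS_50 replicate 1 lay close to the untreated ones. Its log2 difference was 0.39 ± 0.10 (limma adjusted p = 0.0642), and 0.54 without that array (adjusted p = 0.00159). With array weights it was called too (adjusted p = 0.0396). Cyp6a17, which affects temperature preference, averaged 759 ± 15.4 in CS_50 and 892 ± 11.8 in CS_0 (log2 -0.23 ± 0.06, adjusted p = 0.0715, and 0.0391 to 0.0497 without Shu_50 replicate 2, with array weights, with the arrays of the contrast alone or with the 60th percentile as the limit). Cyp6d2, linked to resistance to camptothecin, averaged 164 ± 48.8 in CS_50 and 108 ± 7.68 in CS_0, with the adjusted p of 0.118 becoming 0.0368 without CS_50 replicate 1. The mitochondrial gene Cyp12e1 averaged 222 ± 17.6 in CS_50 and 259 ± 4.93 in CS_0 (-0.22 ± 0.08, adjusted p = 0.257). A second probe set of the gene had -0.05 ± 0.08 in the wild type, with overlapping arrays. In the mutant it had 0.05 ± 0.08, beside -0.13 for the first. Neither probe set was called in any comparison. Cyp313a1 averaged 1649.9 ± 169.9 in CS_50 and 1901 ± 99.6 in CS_0 (-0.21 ± 0.09, adjusted p = 0.326), and its mutant means were 1842 ± 179 in Shu_50 and 2224 ± 244 in Shu_0 (-0.27 ± 0.09, adjusted p = 0.186, and 0.0383 with the replicate block).

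**Figure D3:**
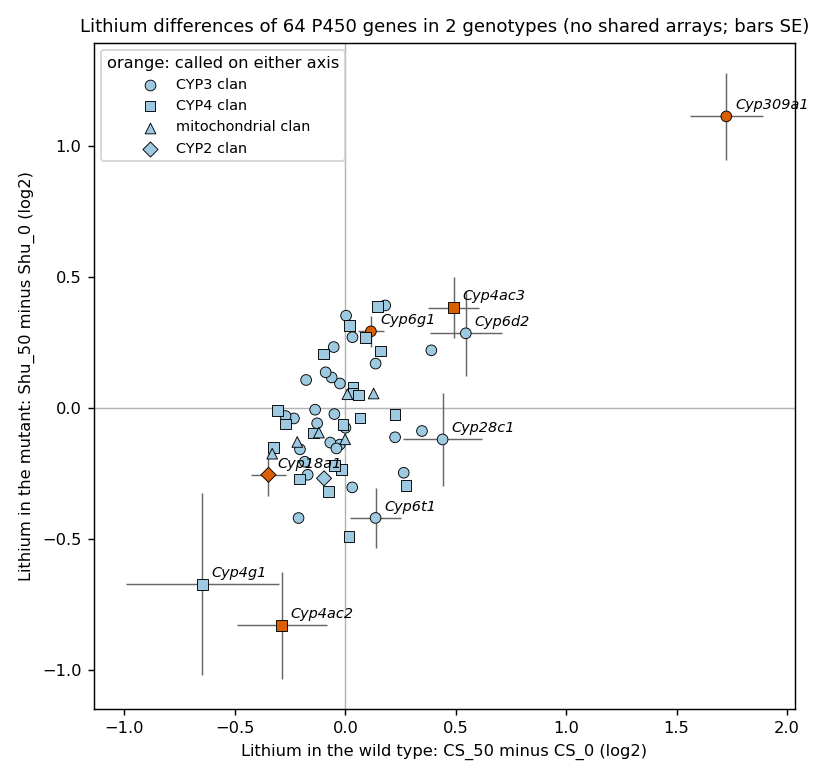
log2 lithium difference of the 64 tested P450 genes in the mutant (vertical axis, Shu_50 minus Shu_0) against that in the wild type (horizontal axis, CS_50 minus CS_0), with shapes for clans, orange for genes called on either axis and SE bars on the named genes. Cyp309a1 stands far to the upper right at 1.11 in the mutant and 1.72 in the wild type, and the other genes lie within -0.83 and 0.55 on both axes.

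The lithium differences of the mutant and of the wild type come from separate arrays and can be set side by side. Over the 64 P450 genes Pearson's r was 0.639 and Spearman's rho 0.439, as a description across genes measured on the same arrays. Without Cyp309a1 r was 0.461, and over all 11261 tested probe sets it was 0.273. The sign was the same for 47 of 64 genes (73.4%), 18 higher and 29 lower in both, against 58.1% of all tested probe sets.

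No P450 gene was called for a difference between the lithium effects, where 1 of all tested probe sets was called in limma (0.00888%). The unadjusted p was under 0.05 for 7 of 64 genes (10.9%), against a background of 6.73%. The lowest was that of Cyp6t1, which had signals of 77.9, 91.1 and 106 in Shu_50 and 126, 122 and 123 in Shu_0. In the wild type it had 124, 99.9 and 97.6 in CS_50 and 97.1, 92.8 and 99.5 in CS_0. In the mutant the treated arrays lay below the untreated ones, and in the wild type they overlapped. The lithium effect on Cyp6t1 was lower in the mutant by 0.56 (log2 -0.56 ± 0.16, unadjusted p = 0.00347, adjusted p = 0.647). The others were Cyp309a1, Cyp28c1 (-0.56 ± 0.25) and Cyp4c3 (-0.51 ± 0.23) with the lower effect in the mutant, and Cyp6a17 (0.19 ± 0.09), Cyp28d1 (0.24 ± 0.11) and Cyp6g1 with the higher one. Their adjusted p lay between 0.705 and 0.742.

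Without lithium 4 of 64 P450 genes were called between the mutant and the wild type (6.25%), against a background of 5.07%, and they were 1 higher in the mutant (background 2.11%) and 3 lower (2.96%). The unadjusted p was under 0.05 for 17 of 64 (26.6%, background 20.0%), 10 higher (background 9.94%) and 7 lower (background 10.1%). Arrays did not overlap for 21 of 64 genes (background 23.2%). The eIF-4A ratio of 3′ to 5′ signal, a control for RNA quality, was also apart, at 2.46 to 2.65 in Shu_0 and 2.66 to 2.96 in CS_0 on the log2 scale. Those of GAPDH and actin overlapped, and the part of RNA quality in these calls was not tested. The median log2 difference was -0.04 over the family and 0.01 over all tested probe sets.

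Cyp6a2, a CYP3 clan enzyme that metabolises insecticides and is induced by phenobarbital, was lower in the untreated mutant. It had signals of 118, 167 and 154 in Shu_0, against 277, 234 and 284 in CS_0. On lithium it had 204, 144 and 222 in Shu_50, against 248, 258 and 289 in CS_50. Each mutant array lay below each wild-type array in both treatments. The log2 difference was -0.84 ± 0.14 untreated (limma adjusted p = 0.00453) and -0.49 ± 0.14 on lithium (adjusted p = 0.165). Lithium made a difference of 0.35 ± 0.14 in the mutant (adjusted p = 0.316, and 0.0402 without Shu_50 replicate 2) and of 0.00 ± 0.14 in the wild type (adjusted p = 0.996). The interval of the difference between these effects was -0.08 to 0.78.

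Cyp6a9, a close relative on the same arm, had signals of 178, 209.6 and 159.8 in Shu_0, against 252, 301.6 and 277 in CS_0. On lithium the signals were 188, 179 and 223 in Shu_50, against 277, 223 and 233 in CS_50. The groups were apart untreated, and on lithium the top array of Shu_50 reached the lowest of CS_50. Cyp6a9 was lower in the untreated mutant by 0.59 (log2 -0.59 ± 0.11, limma adjusted p = 0.00757), beside -0.30 ± 0.11 on lithium (adjusted p = 0.268). The untreated calls of Cyp6a2 and Cyp6a9 held on leaving out any single array. With CS_0 replicate 3 and Shu_0 replicate 1 both left out, the log2 difference was -0.65 for Cyp6a2 (adjusted p = 0.112) and -0.57 for Cyp6a9 (adjusted p = 0.121). With no intensity trend the adjusted p was 0.0602 for Cyp6a2 and 0.0737 for Cyp6a9.

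Cyp28c1, an X-linked CYP3 clan gene, was higher in the untreated mutant. It had signals of 36.2, 50.5 and 40.5 in Shu_0, against 20.2, 26.7 and 27.5 in CS_0. On lithium it had 31.9, 39.5 and 44.1 in Shu_50, against 31.0, 37.9 and 38.5 in CS_50. The CS_0 arrays were the 3 lowest of the 12. The log2 difference was 0.64 ± 0.18 untreated (limma adjusted p = 0.0476) and 0.09 ± 0.18 on lithium (adjusted p = 0.901). Against the same CS_0 arrays, CS_50 was higher by 0.44 ± 0.18 (adjusted p = 0.289). The untreated call was lost on leaving out any single array of the 12, with adjusted p of 0.0516 to 0.137, and with array weights (0.0576), no intensity trend (0.0791), the arrays of the contrast alone (0.105) and no limit on dim probe sets (0.108). Leaving out CS_0 replicate 3 and Shu_0 replicate 1 together lost it as well (0.14).

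Others of low p between the untreated genotypes were Cyp6a17, Cyp6t3, Cyp6a13, Cyp6t1, Cyp305a1 and Cyp6d4, none of them called. Cyp6a17 averaged 773 ± 42.8 in Shu_0 and 892 ± 11.8 in CS_0 (log2 -0.21 ± 0.06, limma adjusted p = 0.0603). It was called without Shu_0 replicate 2 (adjusted p = 0.0326) or Shu_50 replicate 2 (0.0397), and with the 60th percentile as the limit (0.0422). Cyp6t3, needed for ecdysone production in the larval prothoracic gland, averaged 59.4 ± 8.06 in Shu_0 and 39.9 ± 12.2 in CS_0 (0.53 ± 0.18, adjusted p = 0.0907, and 0.0308 without CS_0 replicate 2). The other 4 were higher in the mutant without overlap, by 0.24 to 0.34, with adjusted p of 0.0977 to 0.126. Of these Cyp6a13 was called without Shu_0 replicate 2 (0.026) and Cyp305a1 without CS_0 replicate 1 (0.0495).

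On lithium 0 of 64 P450 genes were called between the genotypes in limma, against a background of 0.506%. Of the 64 genes 10 had an unadjusted p under 0.05 (15.6%, background 11.6%), 3 higher in the mutant (background 5.32%) and 7 lower (background 6.29%). Arrays did not overlap for 18 of 64 genes (background 18.9%). Cyp4ac2 had the lowest p, with the Shu_50 and CS_50 signals given above (log2 -0.70 ± 0.20, adjusted p = 0.165). Cyp6a20, which affects aggression between males, had signals of 298, 298 and 312.1 in Shu_50, against 224, 248 and 287 in CS_50 (0.26 ± 0.08, adjusted p = 0.186). Cyp28a5 averaged 1467 ± 66.8 in Shu_50 and 1341 ± 15.2 in CS_50 (0.13 ± 0.05, adjusted p = 0.335). The Cyp6a20 and Cyp28a5 arrays of the genotypes did not overlap.

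**Figure D4:**
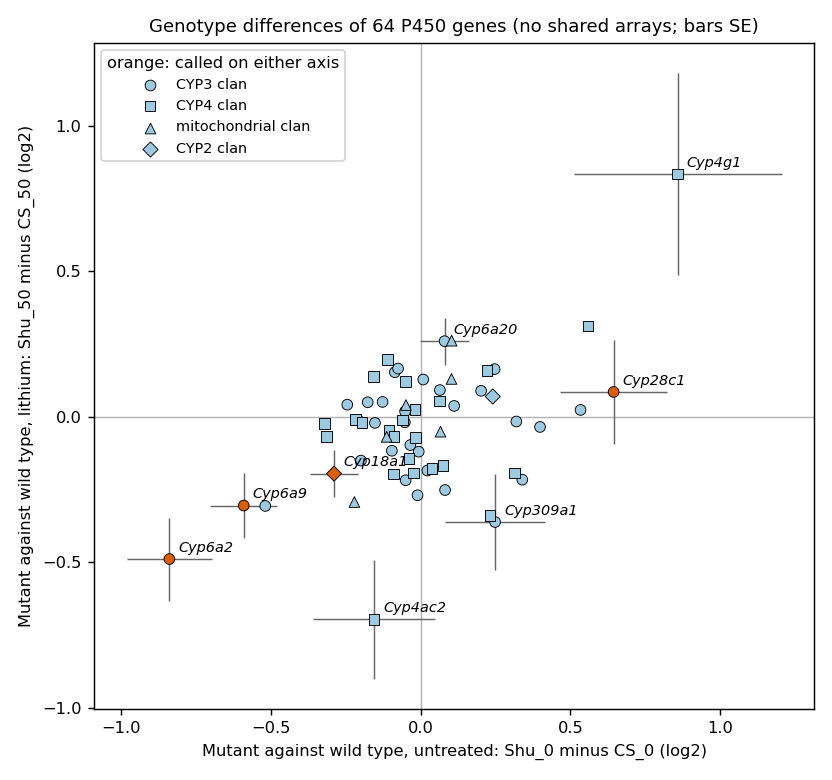
log2 difference between the mutant and the wild type for the 64 tested P450 genes on lithium (vertical axis, Shu_50 minus CS_50) against that without it (horizontal axis, Shu_0 minus CS_0), with shapes for clans, orange for genes called on either axis and SE bars on the named genes. Cyp6a2 and Cyp6a9 lie to the lower left, and Cyp4g1 lies to the upper right with wide bars and no call.

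The genotype differences with and without lithium also come from separate arrays. Across the 64 P450 genes r was 0.486 and rho 0.271, with the same sign for 42 genes (65.6%), against r of 0.338 and 62.8% over all tested probe sets.

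Cyp4g1 makes the hydrocarbons of the cuticle in oenocytes, cells under the body wall. It had signals of 36.04, 35.9 and 48.9 in Shu_50 and 57.2, 93.3 and 56.7 in Shu_0. In the wild type it had 24.3, 11.6 and 25.5 in CS_50 and 15.2, 70.2 and 34.3 in CS_0. Its CS_0 arrays had a coefficient of variation of 69.9%, the widest of the 64 genes in that group. The log2 differences were -0.67 ± 0.35 and -0.65 ± 0.35 for lithium in the mutant and the wild type, and 0.83 ± 0.35 and 0.86 ± 0.35 for the mutant on lithium and untreated (limma adjusted p = 0.481, 0.459, 0.349 and 0.171). Without CS_0 replicate 2 the untreated genotype difference was 1.32 and was called (adjusted p = 0.0287). It was not called without Shu_0 replicate 2, the array with the most Cyp4g1.

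The 2 arrays with the most Cyp4g1, Shu_0 replicate 2 and CS_0 replicate 2, were also those with the highest summed signal of 11 ovary and eggshell genes, at 471 and 412, while the other 10 arrays had 90.9 to 225. Summed signals of 7 oenocyte genes on the array were 614 to 667 in Shu_50, 711 to 726 in Shu_0, 644 to 695 in CS_50 and 663 to 695 in CS_0, and none of the 4 tested was called in any comparison. The part of these cell types in the Cyp4g1 values was not tested.

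Among other members, Cyp4g15, found in the nervous system, averaged 265 ± 18.5 in Shu_50, 255 ± 10.03 in Shu_0, 279 ± 27.0 in CS_50 and 271 ± 11.5 in CS_0. Cyp6a8, induced by phenobarbital and caffeine, averaged 86.7 ± 17.5 in Shu_50, 88.1 ± 13.8 in Shu_0, 76.5 ± 15.5 in CS_50 and 93.4 ± 16.3 in CS_0. For Cyp4d21, a gene of the male fat body that acts in courtship, the means were 70.8 ± 14.8 in Shu_50, 90.4 ± 21.7 in Shu_0, 79.4 ± 7.64 in CS_50 and 83.9 ± 5.52 in CS_0. Cyp301a1, needed to form the adult cuticle, averaged 24.1 ± 2.98 in Shu_50, 27.9 ± 1.31 in Shu_0, 19.0 ± 0.631 in CS_50 and 26.0 ± 7.08 in CS_0. Cyp9f2 averaged 1219.8 ± 42.5 in Shu_50, 1240.4 ± 88.4 in Shu_0, 1144 ± 18.9 in CS_50 and 1187 ± 108 in CS_0. None of these 5 was called in any comparison.

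By clan, in the CYP3 clan 2 of 32 were called for lithium in the mutant (background 1.86%), 1 in the wild type (1.62%) and 3 between the untreated genotypes (5.07%). The CYP4 clan had 1 of 24 called for lithium in each genotype, against the same backgrounds, and none between the genotypes in limma. Of the 2 tested CYP2 clan genes, 1 (Cyp18a1) was called for lithium in the wild type and between the untreated genotypes, against the same backgrounds. The other, Cyp305a1, was not called. Both had arrays apart on lithium in the mutant (background 15.8% in either direction), and both were lower. In the wild type 1 had arrays apart on lithium. Between the untreated genotypes both were apart, with opposite signs (-0.29 for Cyp18a1 and 0.24 for Cyp305a1). None of the 6 mitochondrial genes was called in any comparison.

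Of the 81 P450 genes 41 lie in 14 runs of neighbours, with under 10 kb between adjacent members. Over the 19 adjacent pairs with both genes tested, the sign of the difference was shared in 9 pairs (47.4%) for lithium in the mutant and in 13 pairs (68.4%) for lithium in the wild type. It was shared in 7 pairs (36.8%) between the genotypes on lithium and in 11 pairs (57.9%) without it. Over all pairs of tested P450 genes these shares were 52.4%, 49.7%, 51.0% and 51.0%. The largest run holds 9 genes on arm 2R, Cyp6a22, Cyp6a17, Cyp6a23, Cyp6a19, Cyp6a9, Cyp6a20, Cyp6a21, Cyp6a8 and Cyp317a1. On lithium 5 of the 9 were higher and 4 lower in the mutant, and 1 was higher and 8 lower in the wild type, with none called. In the mutant against the wild type 4 were higher and 5 lower on lithium, and 2 were higher and 7 lower untreated, where Cyp6a9 was the 1 called.

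**Figure D5:**
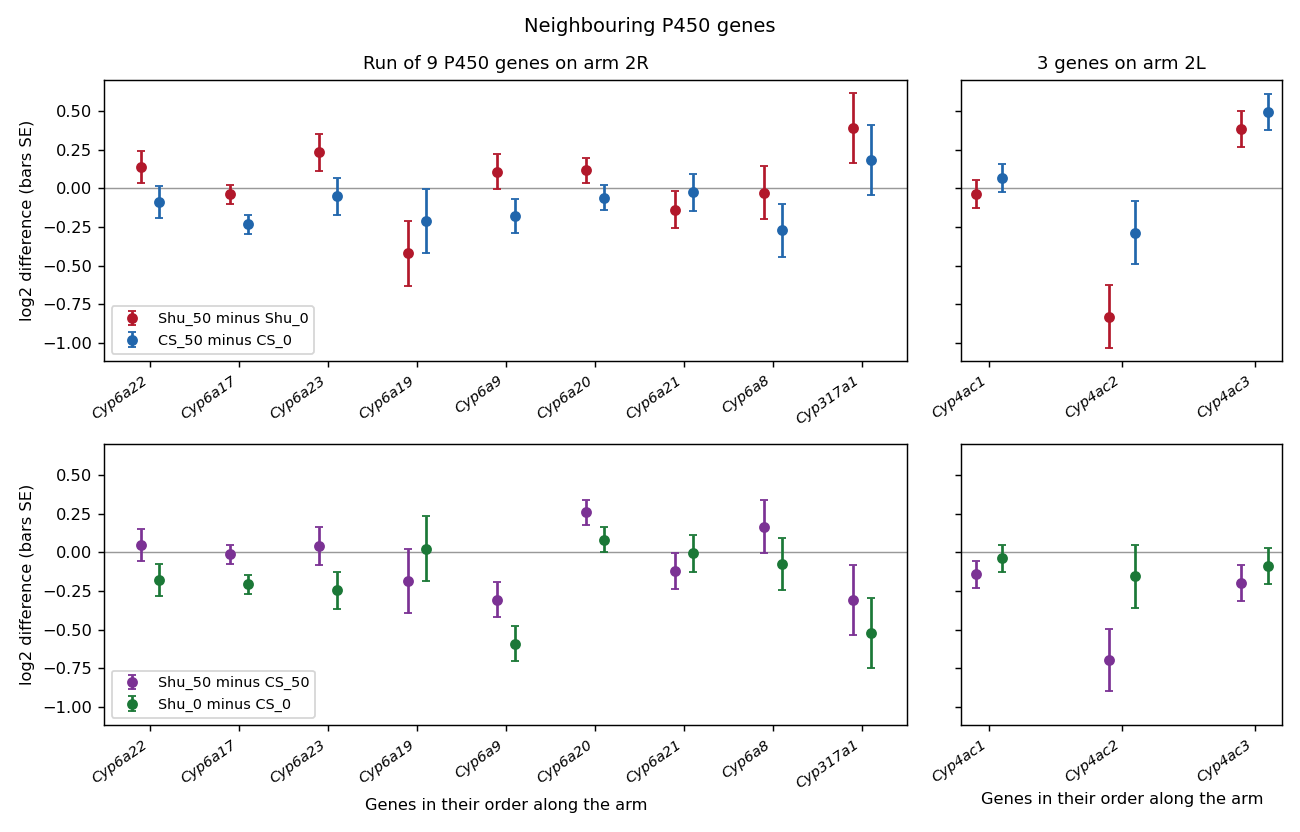
log2 differences with SE bars of the run of 9 P450 genes on arm 2R (left) and of Cyp4ac1, Cyp4ac2 and Cyp4ac3 on arm 2L (right), in their order along the arm, for lithium in each genotype (top) and for the mutant against the wild type (bottom). Cyp4ac2 and Cyp4ac3 lie on opposite sides of 0 on lithium, and Cyp6a9 is the lowest of its run in the untreated genotypes.

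P450s need electron partners, and 4 genes of a list drawn up for them were named on the array. They were Cyt-b5, the ferredoxins Fdx1 and Fdx2, which serve mitochondrial enzymes, and Cyt-b5-r. Whether Cyt-b5-r gives electrons to P450s was not tested. None of the 4 was called in any comparison. The log2 differences ranged from -0.08 to 0.19 on lithium in the mutant and from -0.24 to 0.16 in the wild type. The 0.19 was that of Cyt-b5-r, and the next highest in the mutant was 0.12 (Fdx2). Cpr and dare, the reductases of the microsomal and mitochondrial enzymes, were not analysed here. Of the ecdysone-making P450s with names of their own, dib, sad, shd, spo and spok were on the array and 1, shd, was bright enough to test. It averaged 19.3 ± 4.35 in Shu_50, 16.4 ± 4.81 in Shu_0, 16.4 ± 5.01 in CS_50 and 16.7 ± 1.23 in CS_0, and was not called.

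Of 10 regulators of detoxification and hormone response 2 were called, both lower in the untreated mutant, where 2.96% of all tested probe sets were called lower. The gene cnc, the Nrf2 homologue that drives detoxification genes, had signals of 711, 1004 and 919 in Shu_0, against 1267, 1204 and 1384 in CS_0 (log2 -0.56 ± 0.15, limma adjusted p = 0.0416). The gene usp, the partner of the ecdysone receptor, had 94.9, 120.1 and 90.1 in Shu_0, against 131, 148 and 146 in CS_0 (-0.46 ± 0.13, adjusted p = 0.0452). For both genes the groups did not overlap. The lowest Shu_0 array of cnc was replicate 1 and its highest CS_0 array replicate 3, the ends of the first principal component. How these 2 calls fare in the alternative settings is not given here. Neither gene was called in another comparison, and what they have to do with the P450 genes was not tested.

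The fat body, which lies in the head beside the brain, is a main site of P450 expression, and some of its markers were called too. On lithium 2 of its 10 markers were called lower in the mutant (background 0.648%) and in the wild type (0.622%), apolpp (log2 -0.40 in the mutant and -0.41 in the wild type) and Tsf1 (-0.54 in each). None was called higher, and 3 of the 10 had positive differences in both genotypes, Fbp1 (0.60 in the mutant and 0.67 in the wild type), Fbp2 (0.55 and 0.50) and Obp99b (0.52 and 0.29). The arrays of Fbp2 and Obp99b were apart in the mutant. Summed over the 10 markers the signal was 49550 to 63277 in Shu_50 and 58559 to 70491 in Shu_0, and 47556 to 50094 in CS_50 and 56478 to 63865 in CS_0, apart in the wild type. Cyp18a1 and this sum were both lower on lithium in the wild type, where Cyp309a1 and Cyp4ac3 were higher, and its part in their values was not tested. Between the untreated genotypes 3 of the 10, Fbp2 (1.07), Lsp2 (0.41) and fit (0.46), were called higher in the mutant (background 2.11%).

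In the wild type the summed signals of 3 other marker lists were lower on lithium as well, without overlap, while those of the neuronal, oenocyte and ovary lists overlapped. They were 22152 to 22654 in CS_50 and 25008 to 27263 in CS_0 for 3 photoreceptor genes, and 7645 to 8349 in CS_50 and 8384 to 9659 in CS_0 for 5 glial genes. Over 7 muscle genes they were 18204 to 18861 in CS_50 and 19422 to 20375 in CS_0, with Mlc2 called lower (log2 -0.33) and TpnC41C called higher (0.23). In the mutant TpnC41C (0.44) and Act87E (0.50) were called higher. The log2 ratio of the 3′ to the 5′ probe set of eIF-4A was 2.43 to 2.51 in CS_50 and 2.66 to 2.96 in CS_0. That of GAPDH was 0.875 to 0.987 in CS_50 and 0.997 to 1.08 in CS_0, also apart, and that of actin overlapped. In the mutant these 3 sums and 3 ratios overlapped between Shu_50 and Shu_0, as did the neuronal sum. The ovary and oenocyte sums were lower on lithium there, without overlap. For 11 ovary and eggshell genes they were 111 to 142 in Shu_50 and 156 to 471 in Shu_0. Of the 6 of these tested, 1 was called lower (background 0.648%). Over 7 oenocyte genes they were 614 to 667 in Shu_50 and 711 to 726 in Shu_0. The part of all these sums and ratios in the lithium differences of the P450 genes was not tested. Between the untreated genotypes 1 of 5 glial genes was called lower in the mutant (background 2.96%). The oenocyte sum was higher in Shu_0 than in CS_0 (663 to 695), without overlap. On lithium the muscle sum (19602 to 21613) and the photoreceptor sum (22875 to 28123) of Shu_50 lay above those of CS_50. The other marker sums overlapped between the genotypes. The part of these sums in the genotype differences of the P450 genes was not tested.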

How the data were processed

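The deposited values are the authors' processed intensity of each probe set on 12 Affymetrix arrays, per the labels made from total RNA with a standard Affymetrix protocol. The software behind them is not given in the sources used here. Each deposited column had the same mean of 150.005 with 2% of values trimmed at each end, so arrays had been scaled to one level and were used as they stand. The 183 control probe sets among 18952 were left out. Genes were named from the array's annotation, and all 81 P450 symbols were found in a release 6 gene table, which also gave arms and neighbours. No other sample columns were present (0).

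Intensity plus 6.26 (the 25th percentile of the values) was put on a log2 scale from the deposited columns. For probe sets at or above the 40th percentile of mean log2, group means over the 12 arrays were fitted with limma (version 3.58.1, R version 4.3.3) using lmFit and eBayes, whose prior variance followed intensity. This left 8 residual degrees of freedom. The number of arrays limits the precision. The procedure was also run on simulated data with independent noise for each probe set and array. Such data lack shifts shared by the genes of an array, and the outcome is not given here. Figures used matplotlib 3.10.9.

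Genes are named with values if called, if among the 6 of lowest p not called in a comparison, or for a known role. The members, gene lists and rules were chosen with earlier results of these data known. Replicate numbers come from the titles, and the description of CS_50 replicate 2 gives it sample 1. Alternatives were quantile normalization, other offsets and filters, no trend, array weights, the replicate block, the contrast's arrays alone, any probe set of a gene, and arrays left out.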

Additional observations from a re-analysis of the deposited data

How the results depend on the processing

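The log2 differences recomputed, those of genes called or of lowest p in a comparison, kept their sign under each alternative. For lithium in the mutant (3 genes called) the count was 1 with no intensity trend and 2 to 4 with 1 array left out. For lithium in the wild type (3 called) it was 1 with no filter on dim probe sets, 1 with no intensity trend, 5 with array weights and 1 to 4 with 1 array left out. For the untreated genotypes (4 called) it was 2 with no filter, 0 with no intensity trend, 0 without CS_0 replicate 3 and Shu_0 replicate 1 together, 2 with the arrays of the contrast alone and 2 to 4 with 1 array left out. The causes were not tested. Counts for the genotypes on lithium and for the difference between the lithium effects were 0 in every setting run. The difference between the lithium effects needs all 4 groups and was not fitted with fewer. The deviations of same-numbered arrays had small correlations, of -0.06 to 0.09 (mean 0.02) over 18 pairs. Over 36 pairs of other numbers they were -0.08 to 0.07, with a slightly lower mean (-0.01). Closest to an array of their own number were 7 of 12 arrays, although most of the pairs compared were of other numbers. The labels state no shared batch for a number, so the numbers were not read as pairs. With the replicate number as a block the counts were 4 for lithium in the mutant (Cyp28d1 and Cyp313a1 gained, Cyp4ac2 lost), 3 in the wild type, 0 between the genotypes on lithium and 3 untreated (Cyp18a1 lost). None of the 17 dim P450 genes was called in a fit without the filter.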
